A study of Mus musculus with 17 samples.

Results

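RNA levels of 10 genes widely used to mark astrocytes were followed in the mouse cortex: Gfap, Aqp4, Aldh1l1, Slc1a2, Slc1a3, Gja1, Gjb6, S100b, Aldoc and Glul. They were chosen by symbol from a table of 55453 distinct symbols, each matched 1 entry, and all 10 passed the filter on low values, so that none was lost. The samples were bulk cortex from 17 male C57BL/6J mice in 6 groups. Hemizygous Hnrnph2 KO mice and hemizygous R206W mice were 8 weeks of age, hemizygous P209L mice were 3 weeks of age, and each line had wild-type controls of its own, which were littermates matched for age. Hnrnph2 lies on the X chromosome and codes for hnRNPH2, a nuclear protein that binds RNA, and R206W and P209L are substitutions of a single residue in it. The P209L controls had 2 mice analysed here and every other group had 3. The study describes more than one KO line and writes KO for its own, made by a small insertion or deletion, whereas the labels give KO without naming a line. By the study, its own lines are on C57BL/6J, the strain given here, and the other KO line is on C57BL/6NJ. Age and line cannot be told apart in these samples, because all mice of 3 weeks came from the P209L line and all mice of 8 weeks from the other lines.

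Astrocytes are glial cells that clear glutamate from the space around synapses, convert it to glutamine, buffer potassium and water, and form a network joined by gap junctions. Their endfeet wrap blood vessels, and many of their genes are turned up as the postnatal cortex matures. After injury or disease astrocytes become reactive, a state in which Gfap, an intermediate filament gene, is commonly higher. Several of the 10 genes are also used by other cells: oligodendrocytes contain glutamine synthetase and S100b, and ependymal cells and radial glia contain some of the others.

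Levels are given as TPM, the share of a transcript per 1000000 transcripts of a sample after division by transcript length, so levels of different genes can be compared with each other. Together the 10 genes made up 0.181% to 0.406% of TPM. Of 20 other astrocyte markers, all 20 were measurable, with a summed level of 2672 to 5453 TPM. In bulk tissue, fewer cells of a type and less RNA per cell cannot be told apart, and this holds for every level below. Hnrnph2 itself was at 21.3 to 24.4 TPM in KO mice and at 80.5 to 145 TPM in their controls. A pair of libraries stood apart from the rest. KO control 1 had 20.1% of TPM in mitochondrial genes, against 10.7% to 15.4% in the other mice, and P209L control 2 had a summed choroid plexus marker level of 1770 TPM, against 2.50 to 26.1 TPM elsewhere.

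Promoter sequences are shown for Glul and Slc1a2, which were lower at 3 weeks, and for S100b, which was called higher there with the mutant mice included, though not in every setting. Aqp4, whose difference between ages was larger than that of Slc1a2, was not searched. Each sequence is the 250 bases before a RefSeq start site of GRCm38.p6, on the strand of the gene, with matches to the nuclear factor I half-site TTGGC, or its reverse complement GCCAA, in capitals. Nuclear factor I proteins are transcription factors of the astrocyte lineage.
Glul, chr1:153899679-153899928, plus strand: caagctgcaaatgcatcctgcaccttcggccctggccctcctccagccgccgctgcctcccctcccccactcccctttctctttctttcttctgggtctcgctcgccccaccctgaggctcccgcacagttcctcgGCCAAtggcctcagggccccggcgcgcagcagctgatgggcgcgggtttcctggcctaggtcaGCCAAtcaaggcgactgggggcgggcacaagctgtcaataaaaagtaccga
Slc1a2, chr2:102706188-102706437, plus strand: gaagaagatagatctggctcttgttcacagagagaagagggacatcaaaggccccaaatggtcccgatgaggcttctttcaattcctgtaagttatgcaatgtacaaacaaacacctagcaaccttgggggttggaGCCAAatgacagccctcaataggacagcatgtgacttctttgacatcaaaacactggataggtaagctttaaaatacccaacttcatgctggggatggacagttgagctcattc
S100b, chr10:76253586-76253835, plus strand: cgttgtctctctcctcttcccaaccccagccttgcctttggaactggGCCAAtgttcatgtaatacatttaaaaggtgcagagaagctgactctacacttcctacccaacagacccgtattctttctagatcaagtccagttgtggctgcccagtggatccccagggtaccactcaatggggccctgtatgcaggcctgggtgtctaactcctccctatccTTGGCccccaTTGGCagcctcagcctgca

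The Glul window held 2 matches, which began 114 and 51 bases before the start, the Slc1a2 window held 1 and the S100b window held 3. The Slc1a2 start listed by RefSeq lies 47779 bases from the 5′ end of the gene in GENCODE M21, whereas those of Glul and S100b lie 15 and 17 bases from it. Of the 9 members whose windows were searched, 4 held the half-site, Aldoc being the fourth. It was also found in 41.5% of 32817 promoter windows of the same length, so the members, of either direction at 3 weeks, shared it with a large part of all genes. The STAT site TTCNNNGAA, a palindrome, was found in Slc1a3 alone among the members and in 7.0% of all windows, and the SOX core AACAAT or ATTGTT was found in 0 members and in 9.4% of all windows. A match in these letters does not show that a factor binds there, and its absence from the window does not show the opposite.

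The order of the levels was much the same from mouse to mouse, with a switch at the top between the ages. Glul (glutamine synthetase, which turns glutamate into glutamine) was the highest of the 10 in 12 of 12 mice of 8 weeks, where it had a median of 1037 TPM. At 3 weeks Aldoc (aldolase C, a glycolytic enzyme) was above Glul in 5 of 5 mice. Slc1a2 (GLT-1, the main glutamate transporter of the forebrain) was below Glul in 12 of 12 mice of 8 weeks and in both P209L controls, but above it in 3 of 3 P209L mice. It was above Aldoc in 5 of 12 mice of 8 weeks and in 1 of 5 mice of 3 weeks, so that this pair was not separated. Slc1a3 (GLAST, the second astrocyte glutamate transporter) was below Aldoc and above S100b in 17 of 17 mice. S100b, which encodes a calcium-binding protein, lay above the connexin genes Gja1 (connexin 43) and Gjb6 (connexin 30) except in KO mouse 3, where Gja1 at 136 TPM was just above S100b at 135 TPM. Gja1 exceeded Gjb6 in 9 of 12 mice of 8 weeks and in 1 of 5 of 3 weeks, so these neighbours were not separated either. The lowest levels were mostly those of Gfap, Aqp4 and Aldh1l1, but Gfap was above Gjb6 in 2 of 3 KO mice and above both connexin genes in 2 of 5 mice of 3 weeks, and Aqp4 was above Gjb6 in 1 KO mouse. Gfap was above Aqp4 (aquaporin-4, the water channel of the endfeet) in 17 of 17 mice, and Aqp4 above Aldh1l1 (a folate enzyme used as a pan-astrocyte marker) in 11 of 12 mice of 8 weeks and 2 of 5 of 3 weeks.

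**Figure D1:**
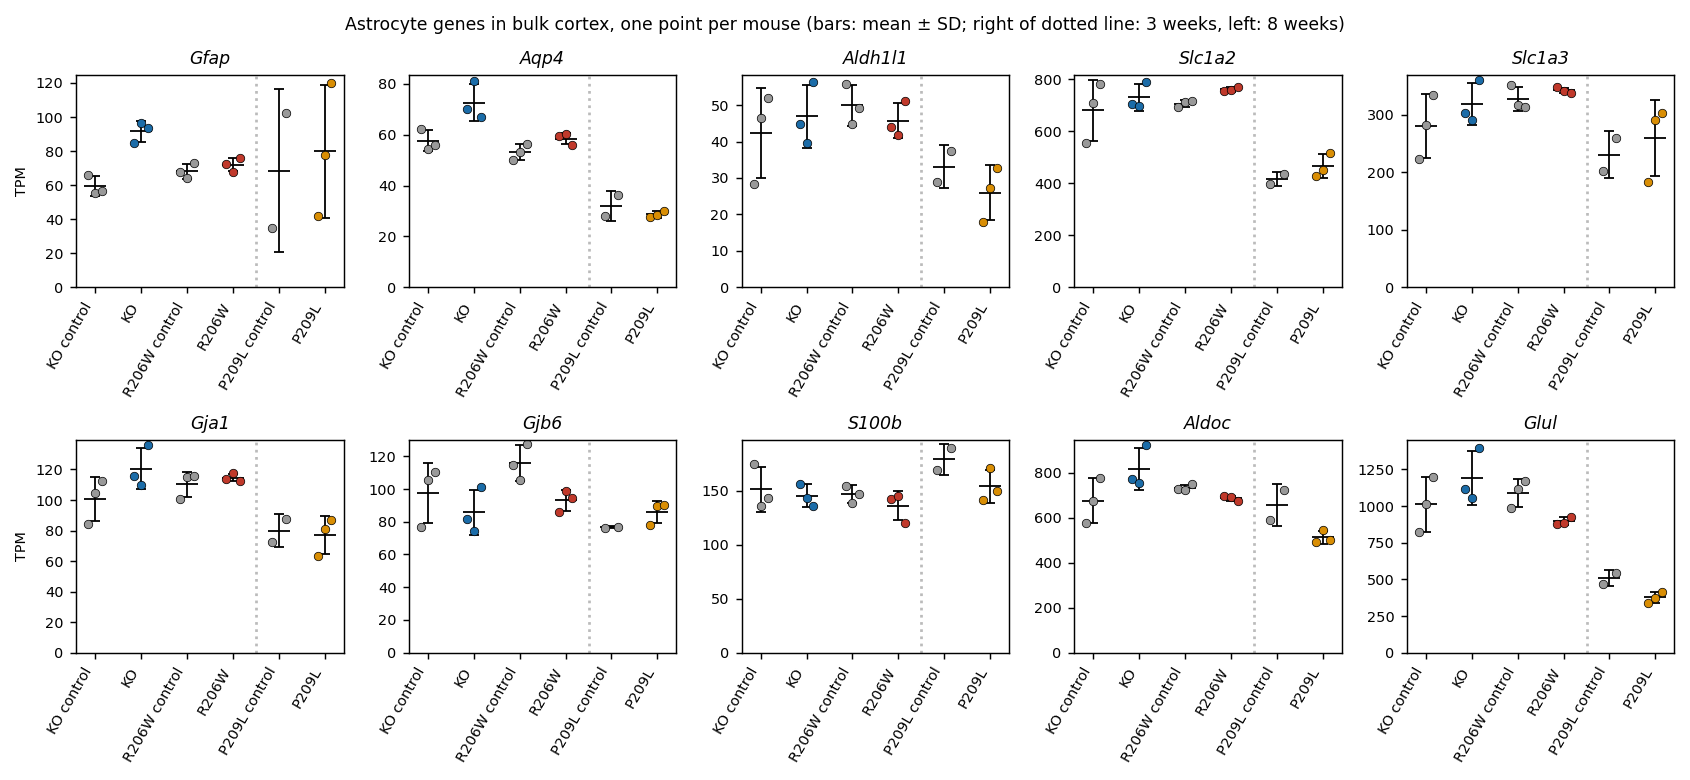
TPM (y axis, from 0) of each of the 10 astrocyte genes in the 6 groups (x axis), with a point for each mouse and bars for the mean ± SD. Glul, Aqp4 and Slc1a2 of the 3-week mice, right of the dotted line, lie below all mice of 8 weeks, and Gfap spreads from 34.6 to 120 TPM among the 3-week mice.

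The comparison of ages used wild-type mice only: the 2 P209L controls of 3 weeks against the 6 controls of 8 weeks from the KO and R206W lines. Glul, the water channel Aqp4, the transporter Slc1a2 and both connexin genes were lower at 3 weeks, whereas the cytoskeletal Gfap and the glycolytic Aldoc gave no difference past the threshold. By limma, 5 of 10 members were lower and 0 were higher at an adjusted p under 0.05 (5 of 10 in either direction, against 36.1% of all 16265 genes tested, 24.8% lower and 11.3% higher). The median log2 difference of the members was -0.42, against -0.12 over all genes tested, where 1837 genes were higher and 4039 lower. With size factors the medians were -0.31 and -0.02, and 3239 genes were higher and 3879 lower. Without KO control 1 the count of members called was 8, 1 of them higher, against 50.3% of all genes. Without P209L control 1 or 2 it was 3, namely Glul, Aqp4 and Slc1a2, against 18.3% and 16.7% of all genes.

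Glul showed the largest difference of the 10. Its levels were 821, 1016 and 1197 TPM in KO controls and 984, 1117 and 1169 TPM in R206W controls, against 471 and 545 TPM in P209L controls. The groups did not overlap, with both mice of 3 weeks well below the lowest older control. The log2 difference was -1.04 (SE 0.14, adjusted p = 9.97e-05).

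Aqp4 levels were 62.4, 54.5 and 56.0 TPM in KO controls and 49.9, 53.2 and 56.5 TPM in R206W controls, against 27.9 and 36.1 TPM in P209L controls. Every control of 3 weeks was therefore below every control of 8 weeks, with a log2 difference of -0.78 (SE 0.11, adjusted p = 1.37e-04). Slc1a2 levels were 553, 708 and 781 TPM in KO controls and 692, 711 and 716 TPM in R206W controls, against 397 and 436 TPM in P209L controls. These groups did not overlap either, although KO control 1 lay well below the other older mice, and the log2 difference was -0.73 (SE 0.12, adjusted p = 3.46e-04). Non-overlap of this kind, in the lower direction, was seen for 3 of 10 members and for 21.5% of all genes tested.

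The connexin genes were lower by less, and their groups overlapped. Gjb6 had a log2 difference of -0.46 (SE 0.14, adjusted p = 0.0208) and Gja1 of -0.40 (SE 0.14, adjusted p = 0.0348), calls that were lost in 3 and 9 of 17 alternative settings. For Gjb6 the overlap came from KO control 1 alone, at 76.8 TPM beside 76.4 and 77.0 TPM in the P209L controls, and for Gja1 from the same mouse, at 84.6 TPM beside 72.2 and 87.5 TPM. The second transporter, Slc1a3, gave -0.39 (SE 0.18, adjusted p = 0.0988) and Aldh1l1 -0.45 (SE 0.23, adjusted p = 0.132), neither of which passed the threshold.

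S100b went the other way without passing the threshold in this comparison. It was at 169 and 189 TPM in P209L controls and at 136 to 174 TPM in the 6 older controls, with a log2 difference of 0.27 (SE 0.12, adjusted p = 0.0891). The overlap came from KO control 1 alone, at 174 TPM, with the other older controls at 154 TPM or less. Without that library S100b was called higher. S100b overlaps Dip2a on the opposite strand. Dip2a had a mean of 30.0 TPM against 150 TPM for S100b, and whether the quantification used the strand is not given in the sources used here.

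Gfap could not be placed. P209L control 1 had 34.6 TPM and P209L control 2 had 102 TPM, the former below and the latter above all 6 controls of 8 weeks, which lay between 55.4 and 72.8 TPM. The log2 difference of -0.09 (SE 0.33, 95% confidence interval -0.79 to 0.61) became 0.68 without P209L control 1 and -0.85 without P209L control 2, and was 0.02 with size factors and 0.07 with quantile normalization, and it did not pass the threshold in any setting tried. P209L control 2 is the library with the high choroid plexus signal. Of 5 choroid plexus markers 2 passed the filter. The summed oligodendrocyte marker level of this library was 6366 TPM, against 4269 TPM in P209L control 1. The part of these cells in its Gfap level was not tested.

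**Figure D2:**
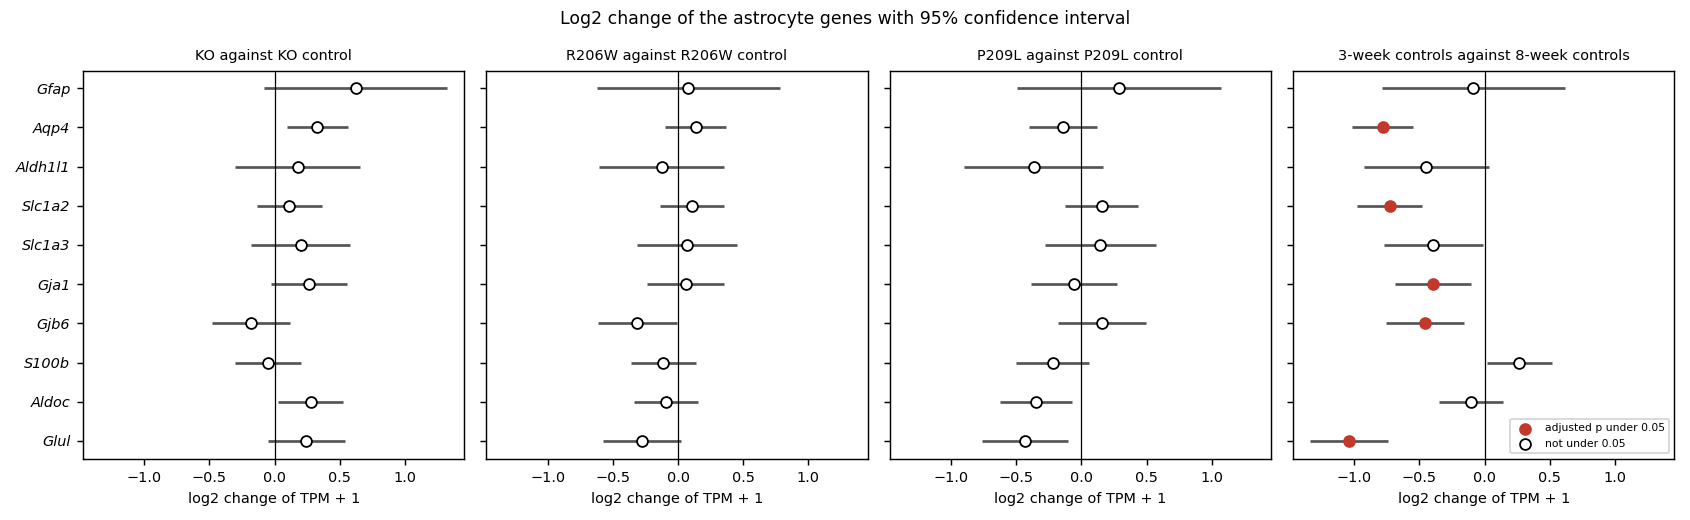
Log2 change of TPM + 1 (x axis) with its 95% confidence interval for the 10 astrocyte genes (y axis) in 4 comparisons, filled where the adjusted p was under 0.05. None is filled for the 3 mutant groups, and Aqp4, Slc1a2, Gja1, Gjb6 and Glul are filled, all below 0, for the controls of 3 weeks against those of 8 weeks.

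With the mutant mice included, the 2 groups of 3 weeks were set against the 4 groups of 8 weeks, a comparison that uses the same controls as the one above and so is not independent of it. Here 8 of 10 members were lower and 1 was higher, against 57.7% of all genes tested that were called in either direction (39.4% lower and 18.4% higher). Glul had a log2 difference of -1.25 (SE 0.09, adjusted p = 1.50e-07), Aqp4 of -0.97 (SE 0.07, adjusted p = 1.63e-07) and Slc1a2 of -0.70 (SE 0.08, adjusted p = 3.66e-06). All 5 mice of 3 weeks lay below all 12 of 8 weeks for these 3 members, which 10.2% of all genes did. Aldh1l1, Gja1, Slc1a3, Aldoc and Gjb6 had log2 differences of -0.64 to -0.25 with overlapping groups. Gjb6 lost its call in 7 of 25 alternative settings and Slc1a3 in 1.

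S100b was higher by 0.20 (SE 0.08, adjusted p = 0.0393), at 141 to 189 TPM at 3 weeks and 120 to 174 TPM at 8 weeks. This call was lost in 14 of 25 alternative settings, and the difference lay between 0.16 and 0.34 over all 25. Gfap gave -0.12 (SE 0.22, adjusted p = 0.669), 0.27 without P209L control 1, and -0.50 without P209L control 2, where it passed (adjusted p = 0.0484). Its mean was 75.4 TPM ± 37.1 (SD, n = 5) at 3 weeks and 72.8 TPM ± 13.1 (SD, n = 12) at 8 weeks, so the spread differed far more than the mean. Aqp4 had 30.0 TPM ± 3.55 (SD, n = 5) and 60.5 TPM ± 8.58 (SD, n = 12).

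The relation between some members also differed between the mice of 3 and of 8 weeks. Within each mouse, the ratio of Slc1a2 to Slc1a3, the transporters whose balance is known to shift toward Slc1a2 as the forebrain matures, was 1.97 to 2.51 over the 12 mice of 8 weeks and 1.56 to 2.34 over the 5 of 3 weeks. The ranges overlapped through P209L mouse 1, which had the highest ratio of its age. The mean log2 ratio was lower at 3 weeks by an exact permutation test (difference -0.32, p = 0.00582, adjusted p = 0.0233 over the 4 ratio tests made). The test shuffled mice across lines and genotypes and takes their spreads to be alike. The SD of the log2 ratio was 0.23 at 3 weeks (n = 5) and 0.09 at 8 weeks (n = 12), so this p may be too small. Without P209L mouse 2 or mouse 3 the adjusted p was 0.0791 in each case, past the threshold in neither. In the controls alone the difference was of the same size (-0.33, exact permutation p = 0.143, adjusted p = 0.190), and 2 mice against 6 cannot give a p below 0.0714 in this test.

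The ratio of Glul to Aldoc, chosen after the values were seen and so not tested, was 1.26 to 1.56 at 8 weeks and 0.685 to 0.828 at 3 weeks, with no overlap. Among all 45 pairs of members, 8 had ratios that did not overlap between the ages, 5 of which involved Glul and 3 Aqp4. The levels of Glul and of Aqp4 alone did not overlap between the ages either, so these gaps are not independent of that result. The share among pairs of other genes was not examined. The ratio of Gfap to Aqp4, also chosen after the values were seen, ran from 1.01 to 1.40 at 8 weeks and from 1.24 to 3.98 at 3 weeks. The ratio of Gja1 to Gjb6 gave differences of 0.06 in controls (exact permutation p = 0.714) and -0.28 over all groups (exact permutation p = 0.0388, adjusted p = 0.0776), neither of which passed after adjustment. The latter passed without R206W control 1, R206W control 3 or P209L control 2 (adjusted p = 0.0348, 0.0449 and 0.0396).

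**Figure D3:**
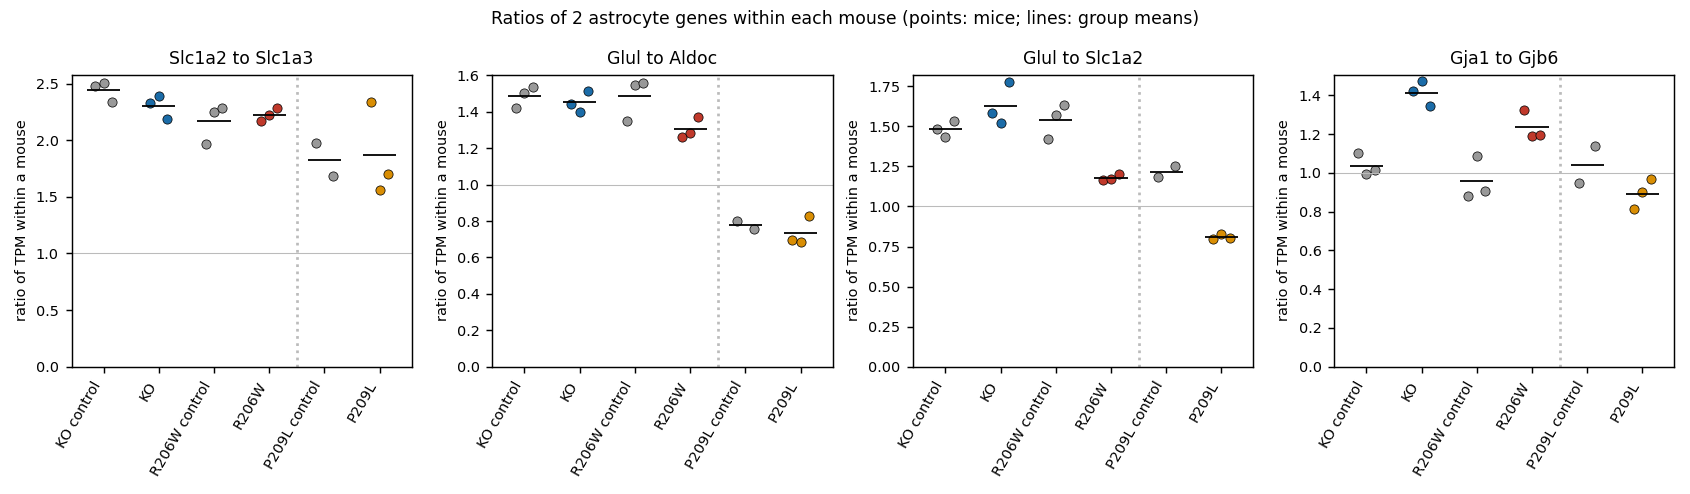
Ratio of the TPM of a pair of astrocyte genes within each mouse (y axis, from 0) in the 6 groups (x axis), with a point for each mouse and a line at the group mean. The Glul to Aldoc ratio is above 1 in all mice of 8 weeks and below 1 in all mice of 3 weeks, left and right of the dotted line, and the Gja1 to Gjb6 ratio of KO and of R206W mice lies above that of their controls.

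Other astrocyte markers and genes of glutamate handling showed a similar direction with age, and so did neuron markers. Of all genes tested, 24.8% were lower and 11.3% higher in the controls of 3 weeks, and 39.4% and 18.4% over all groups. The medians of all genes were -0.12 and -0.14. These shares belong beside every count of a gene list by age below. Of 20 further astrocyte markers, 8 were lower and 1 was higher in the controls of 3 weeks, with a median log2 difference of -0.38. The largest of these in significance were Slc4a4, a bicarbonate transporter, at -0.93 (SE 0.15), Chrdl1, a secreted inhibitor of BMP signaling, at -0.82 (SE 0.14), and Kcnj10, the potassium channel Kir4.1, at -1.04 (SE 0.21). Over all groups 17 were lower and 2 were higher, with a median of -0.45. Of 12 genes of glutamate and glutamine handling, 6 were lower in the controls and 11 over all groups, and 0 were higher. Glud1, which encodes glutamate dehydrogenase, was at -0.66 (SE 0.12), and the glutamine carrier gene Slc38a1, mainly neuronal, at -0.99 (SE 0.20) in the controls.

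Endfoot anchoring genes were mixed. Of 6, Dmd (dystrophin) at -0.68 (SE 0.13) and Dag1 (dystroglycan) at -0.70 (SE 0.25) were lower in the controls, while Agrn (agrin) was higher at 0.80 (SE 0.20). Of 19 measurable relatives of the members in their gene families, 3 were higher and 4 lower, against 11.3% and 24.8% of all genes. Among them were S100a13 at 0.76 (SE 0.15), S100a1 at 0.72 (SE 0.14) and the connexin 26 gene Gjb2 at -0.79 (SE 0.21). The 19 relatives had a median log2 difference of -0.004, with 9 above 0 and 10 below, so they showed no common direction. Of 10 measurable genes of reactive astrocytes, Hspb1, a small heat shock protein gene, at -1.65 (SE 0.39) and Stat3, a transcription factor, at -0.76 (SE 0.23) were lower and 0 were higher, while 4 more of the 14 on the list, including Lcn2 and Cxcl10, were under the filter.

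Markers of other cell types moved with age as well. Of 8 neuron markers, 4 were lower and 1 was higher in the controls and 7 and 1 over all groups, with medians of -0.57 and -0.51, and their summed level was 3237 to 3767 TPM at 3 weeks and 3598 to 6211 TPM at 8 weeks. Of 10 oligodendrocyte markers, 7 were higher and 0 lower in the controls, where their summed level was 4269 and 6366 TPM at 3 weeks against 2724 to 3809 TPM at 8 weeks. Over all groups 3 were higher and 1 was lower. Of 8 microglia markers 2 were higher and 4 lower over all groups, and of 6 endothelial markers 1 was higher and 3 were lower. The part of these cell types in the members' values was not tested, and the astrocyte genes were not shown to differ from neuron markers in their direction.

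**Figure D4:**
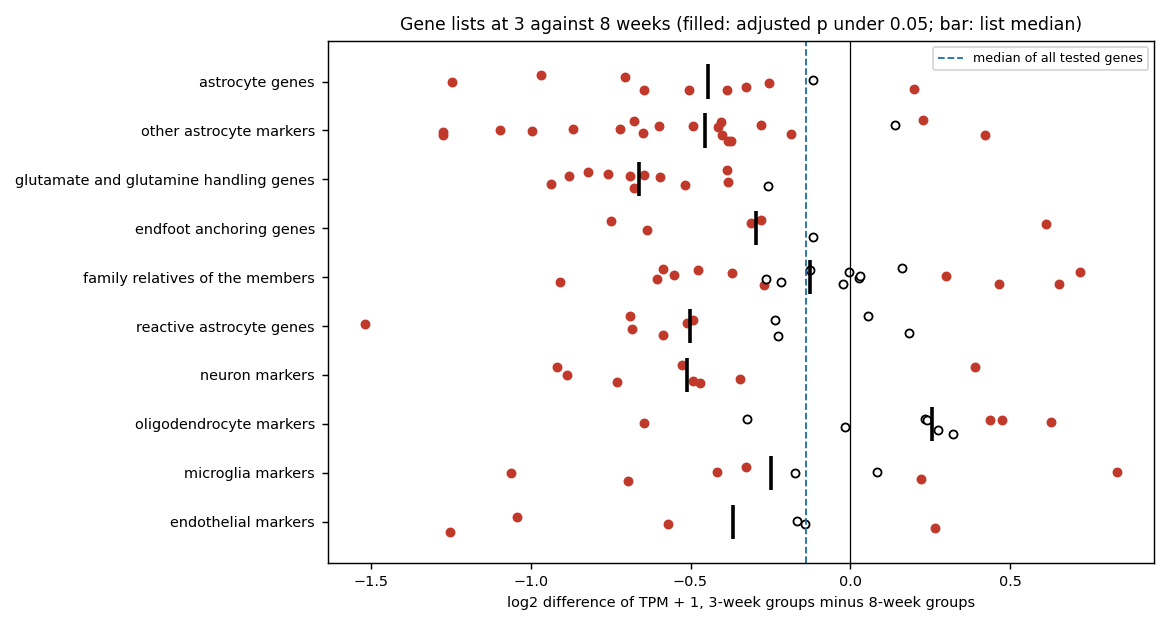
Log2 difference between the groups of 3 weeks and those of 8 weeks (x axis) for each gene of 10 lists (y axis), filled where the adjusted p was under 0.05, with a bar at each list's median and a dashed line at the median of all genes tested, -0.14. The medians of the 10 astrocyte genes, the other astrocyte markers and the neuron markers lie near each other, at -0.45, -0.45 and -0.51, and that of the oligodendrocyte markers is above 0, at 0.26.

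In KO mice, no astrocyte gene passed the threshold against the KO controls. By limma 0 of 10 members were called, against 0.00615% of all genes tested, and 2 of 10 had an unadjusted p under 0.05, against 4.08% of all genes. Nor was any called among the other astrocyte markers (0 of 20, median log2 change 0.24) or the reactive genes (0 of 10, median 0.02). The median log2 change of the members was 0.22, against 0.06 over all genes. The KO controls include the library with the high mitochondrial share, which was the lowest of its group for 7 members, and without it these medians were 0.08 and -0.06. Markers of several other cell types had medians of a like size, with 0 called: 0.29 for 6 endothelial, 0.27 for 5 oligodendrocyte precursor, 0.25 for 8 leptomeningeal fibroblast, 0.18 for 8 microglia and 0.17 for 10 oligodendrocyte markers. Neuron markers did not, with a median of 0.008 over 8 genes, 4 above 0 and 4 below. The part of these cell types in the members' values was not tested.

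Gfap and Aqp4 were the members whose KO values all lay above the controls. Gfap was at 84.7, 96.7 and 93.5 TPM in KO mice and at 66.1, 55.4 and 56.5 TPM in KO controls, and these KO values were also above all other mice of 8 weeks. The log2 change was 0.62, with an interval of -0.08 to 1.32 from the spread shared by all 6 groups (adjusted p = 0.999). The SD of Gfap was 3.87 to 6.21 TPM in the 8-week groups, 47.9 TPM in P209L controls and 39.1 TPM in P209L mice. The interval therefore does not describe the spread of the KO line alone. Aqp4 was at 70.0, 80.9 and 66.9 TPM in KO mice and at 62.4, 54.5 and 56.0 TPM in their controls, a log2 change of 0.33 (SE 0.11, unadjusted p = 0.00949, adjusted p = 0.999). A gap in this direction was present for 2 of 10 members and for 5.43% of all genes. KO control 1 was the highest of its group for both genes, so in TPM as deposited the gap did not rest on that library. Its size factor was 0.792, against 0.862 to 1.13 in the other mice, so rescaling raises its levels relative to theirs. Whether the gaps remain after rescaling was not examined.

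Glul and Aldoc were also higher on average in KO mice, with overlapping groups. Aldoc was at 773, 756 and 925 TPM in KO mice and at 577, 675 and 779 TPM in their controls, a log2 change of 0.28 (SE 0.12, adjusted p = 0.999), and the Glul change was 0.24 (SE 0.14). The remaining 6 members had log2 changes from -0.18 for Gjb6 to 0.26 for Gja1, none past the threshold. Without KO control 1 the signs for Aldh1l1, Slc1a2 and S100b turned. With sample weights, which gave that library the least weight of all, 2 members were called, Aqp4 at 0.39, higher, and Gjb6 at -0.38, lower, against 13.1% of all genes.

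In R206W mice, 0 of 10 members were called against the R206W controls by limma, against 0.0369% of all genes, and 1 had an unadjusted p under 0.05, against 2.19% of all genes. The median log2 change of the members was -0.02. Groups did not overlap for 4 of 10 members and for 16.2% of all genes. Gjb6 was at 86.2, 98.8 and 94.2 TPM in R206W mice and at 115, 106 and 127 TPM in their controls, a log2 change of -0.31 (SE 0.14, unadjusted p = 0.0436, adjusted p = 1.00). Glul was at 877, 888 and 926 TPM in R206W mice and at 984, 1117 and 1169 TPM in controls, a log2 change of -0.28 (SE 0.14, adjusted p = 1.00). Aldoc, at -0.09, was the third member with all R206W values below the controls, and Slc1a2, at 0.11, was the one with all values above them.

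In P209L mice, 0 of 10 members were called against the P209L controls by limma, against 0.0984% of all genes, and 2 had an unadjusted p under 0.05, against 7.46% of all genes. The median log2 change of the members was -0.10. Glul was at 341, 374 and 415 TPM in P209L mice and at 471 and 545 TPM in their controls, so that all P209L mice were below all 14 other mice. The log2 change was -0.43 (SE 0.16, unadjusted p = 0.0142, adjusted p = 0.501). Aldoc was at 491, 546 and 501 TPM in P209L mice and at 590 and 722 TPM in controls, a log2 change of -0.35 (SE 0.13, unadjusted p = 0.0172, adjusted p = 0.530). Gjb6 was at 78.0, 89.9 and 90.2 TPM against 76.4 and 77.0 TPM, with all P209L values slightly above the controls and a log2 change of 0.16 (SE 0.16, adjusted p = 0.924).

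Groups did not overlap for these 3 members, as for 24.9% of all genes. Gfap, at 41.9, 78.0 and 120 TPM in P209L mice, covered a wider range than its controls, and the sign of its log2 change of 0.29 (SE 0.37) turned without P209L control 1 and without P209L mouse 3. The median log2 change of the 10 oligodendrocyte markers in the same comparison was -0.84, with 10 of 10 at an unadjusted p under 0.05 and 0 of 10 called, and their summed level was 2576 to 3680 TPM in P209L mice against 4269 and 6366 TPM in controls. The part of these cells in the members' values was not tested.

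Set side by side, the log2 changes of Glul were 0.24, -0.28 and -0.43 in KO, R206W and P209L mice and those of Aldoc 0.28, -0.09 and -0.35, none of them past the threshold. The differences between these effects were tested in the same model. For Glul the KO effect was above that of R206W by 0.52 (95% confidence interval 0.10 to 0.94, adjusted p = 1.00) and above that of P209L by 0.67 (95% confidence interval 0.23 to 1.12, adjusted p = 0.420). For Aldoc the corresponding values were 0.37 (adjusted p = 1.00) and 0.63 (adjusted p = 0.347). Among the other astrocyte markers, the reactive genes, the endfoot genes and the genes of glutamate handling, 0 genes were called by limma in KO, R206W or P209L mice, and 2, 1 and 2 of the 20 other astrocyte markers had an unadjusted p under 0.05. No member passed in any test of a difference between effects (0 of 10 in each by limma, against 0.0307% of all genes for KO minus R206W, 0.0492% for KO minus P209L and 0% for R206W minus P209L). At an unadjusted p under 0.05 there were 2, 3 and 1 members, against 2.29%, 7.98% and 3.98% of all genes. Gjb6, whose values lay below the controls in R206W mice and above them in P209L mice, was the 1 for R206W minus P209L, with a difference of -0.47 (SE 0.21, unadjusted p = 0.0421, adjusted p = 1.00).

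Ratios within a mouse do not depend on the total of its library. The ratio of Gja1 to Gjb6, the main astrocyte connexin genes, was 1.34 to 1.47 in KO mice and 0.992 to 1.10 in their controls, and 1.19 to 1.32 in R206W mice and 0.879 to 1.09 in theirs. In P209L mice it was 0.811 to 0.966, against 0.945 and 1.14 in controls, and there the ranges overlapped. The ratio of Glul to Slc1a2 was 1.16 to 1.20 in R206W mice and 1.42 to 1.63 in their controls, and 0.798 to 0.826 in P209L mice and 1.18 and 1.25 in theirs, with no overlap in either line, while in KO mice, at 1.52 to 1.78, it overlapped with 1.43 to 1.53 in controls. These comparisons between genotypes were chosen after the values were seen and were not tested. Of the 45 pairs of members, ratios did not overlap for 12 in KO, 21 in R206W and 21 in P209L mice. A gap was therefore not particular to the pairs named here. The pairs share genes, so their gaps are not independent of each other. Pairs of other genes were not examined, and the part of group size in these gaps was not tested.

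The wild-type controls of the KO and R206W lines, both of 8 weeks, were compared with each other. By limma 0 of 10 members and 0% of all genes were called, and 0 members had an unadjusted p under 0.05, against 3.12% of all genes. The members' log2 differences ran from -0.11 for Aqp4 to 0.27 for Aldh1l1. The median was 0.13 both for the members and for all genes, and that of all genes was -0.0016 without KO control 1 and -0.0024 with size factors.

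Mouse to mouse, most of the members rose and fell together within groups. After each group mean was subtracted from log2(TPM + 1), the 45 pairs of members had a median Pearson r of 0.63 over 17 mice, with 34 above 0, the highest being Slc1a3 with Aldh1l1 at 0.93 and Glul with Slc1a2 at 0.92. Gfap, Aqp4 and S100b had the lowest median r to the other members, at 0.36, -0.06 and -0.17. These values share the total of each library, and after rescaling by median-of-ratios size factors the median r was 0.40, with 37 pairs above 0, and Glul with Slc1a2 was the highest at 0.88. The median r was then 0.48 for Gfap, above that over all pairs, 0.23 for Aqp4 and 0.07 for S100b, and Aqp4 with S100b had an r of 0.81. The points also share depth and the low KO control 1. After the group means were subtracted, 11 degrees of freedom remained between mice, fewer than the 17 points. The r between pairs of other genes was not examined.

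**Figure D5:**
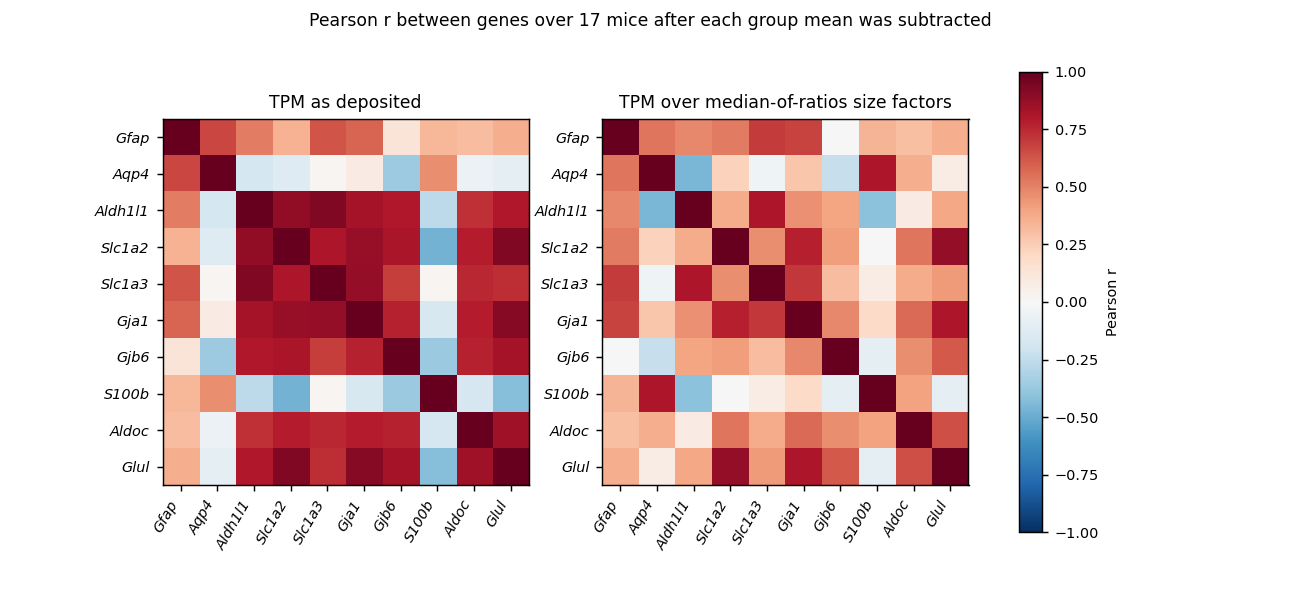
Pearson r (color) between each pair of astrocyte genes over 17 mice after each group mean was subtracted from log2(TPM + 1), for TPM as deposited (left) and after rescaling by size factors (right). A block of 7 genes without Gfap, Aqp4 and S100b is dark red on the left and paler on the right, where the median r is 0.40 rather than 0.63.

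The genes whose mouse-to-mouse pattern was most like the mean of the 10 members, by the same measure among 16255 other genes, were Ctsz (r = 0.98), Tmem176b (r = 0.96), Serpina3n (r = 0.96), Dazap2 (r = 0.95) and Plpp3 (r = 0.94). That mean was unweighted, and Gfap varied most within groups (SE of its KO change 0.33, against 0.11 to 0.23 for the other members). Serpina3n, a protease inhibitor gene, is also on the list of reactive genes, and it was neither called in KO, R206W and P209L mice nor with age. After rescaling, their r was between 0.72 and 0.90. The median r over all genes was 0.40 and 39.9% of genes had an r above 0.5, so a shared pattern was widespread in this table.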

How the data were processed

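Total RNA from bulk cortex was sequenced from stranded total RNA libraries (TruSeq). The authors deposited TPM values by gene symbol, a column for each mouse; the submitters' processing notes name Trim Galore, STAR 2.7.1a, GATK 4.0.4.0, RSEM and mm10, without saying what each was used for, and the annotation is not given in the sources used here. TPM keeps no depth, so depth is unknown and no counting error is given. Strand use in quantification, or reads shared with overlapping genes, could shift a level. Each column summed to 1000000. Repeated symbols (120) were summed. Genes with a mean of at least 1 TPM (16265) were tested as log2(TPM + 1), on which scale fold changes of low genes are understated, with limma 3.58.1 in R 4.3.3 (a mean for each of 6 groups, eBayes with trend), two-sided, adjusted by Benjamini-Hochberg over all genes at 0.05. Standard errors and intervals come from this fit. Ratios were compared by a two-sided exact permutation test over mice. Identifiers and coordinates came from GENCODE M21 (GRCm38) and promoters from RefSeq. The method was tested on simulated data. The members and gene lists were chosen with earlier results of these data known. Named genes were the 10 members, Hnrnph2, from each other list the 3 called genes of smallest p at most, and the 5 genes most like the members' mean. Alternatives were other pseudocounts, filters, scalings, sample weights, replicate blocks, fits on the compared groups alone, and leaving out each mouse; leaving out both libraries that stood apart was chosen after the data were seen.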

Additional observations from a re-analysis of the deposited data

How the results depend on the processing

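Counts of members called moved by more than 1.5 times in few settings. With sample weights they were 2 for KO, 8 for controls of 3 weeks and 2 for KO minus P209L. In these, 13.1%, 58.2% and 2.12% of all genes were called. With the compared groups alone the count was 3 for controls of 3 weeks, where 1376 of 16265 genes were higher and 2943 lower. Leaving out a mouse gave 3 to 8 in that comparison, against 16.7% to 50.3% of all genes. Glul, Aqp4 and Slc1a2 were called in all 17 and all 25 settings of the age comparisons. The cause of the changes below was not tested.

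Signs turned in 28 values, each for a member not called in that comparison. With sample weights the KO changes were -0.0865 for Aldh1l1, -0.0179 for Slc1a2 and 0.145 for S100b. Without KO control 1 and P209L control 2 together, chosen after seeing the data, they were -0.0804, -0.0298 and 0.0550, and the P209L changes of Aqp4 and Gja1 were 0.0365 and 0.0808. With size factors Gfap was at 0.0249 in controls and 0.0205 over all groups, and Aldoc at 0.00851 in controls. With quantile normalization Gfap was at 0.0717 and 0.0344. Leaving out each mouse in turn gave, for KO, -0.0804 to 0.344 for Aldh1l1, -0.0298 to 0.219 for Slc1a2 and -0.125 to 0.0550 for S100b, for R206W, -0.00568 to 0.0909 for Gja1, and for P209L, -0.477 to 1.06 for Gfap, -0.323 to 0.0365 for Aqp4, -0.0358 to 0.376 for Slc1a3 and -0.192 to 0.0808 for Gja1. For the controls of 3 weeks it gave -0.855 to 0.682 for Gfap and -0.250 to 0.0405 for Aldoc, and over all groups -0.500 to 0.269 for Gfap. The log2 ratio difference of Slc1a2 to Slc1a3 over all groups ran from -0.404 to -0.257, and that of Gja1 to Gjb6 from -0.0707 to 0.194 in controls and from -0.341 to -0.220 over all groups.

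Mice of a line with the same number had r from -0.113 to 0.331 between their deviations from the group mean, and mice with different numbers -0.299 to 0.265. With 2 or 3 mice in a group these deviations depend on each other, so the r values cannot decide whether mice were paired. With a replicate block the P209L change of Gfap was -0.0608, and the members called were 0 for each mutant and 5 and 8 for the age comparisons. With that block, 2023 of 16265 genes were higher and 3864 lower in the controls of 3 weeks, and 3186 and 6355 over all groups. In KO mice 0 genes were higher and 1 lower, in R206W mice 4 and 0, and in P209L mice 6 and 3. TPM keeps no depth, so its limits cannot be weighed.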
